A study of Mus musculus with 6 samples.

Results

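The genes described here encode the structural proteins of the extracellular matrix and the integrins that bind them: collagens, laminins, fibronectin, fibrillin, nidogens, perlecan, versican, periostin and the hyaluronan synthase Has2. The rule for members used gene symbols and no measured values, but it was chosen with earlier results of these data known. It took every probe set with 1 gene symbol whose name begins as a numbered collagen chain, laminin chain or integrin subunit. To these it added 9 matrix genes listed by name. The rule found 84 probe sets for 82 of the 15153 genes on the array. They were 44 collagen, 10 laminin and 20 integrin genes and 8 others. Fbn1 was not analysed here, and leukocyte integrin genes with a letter in place of a number (such as Itgal) fall outside the rule.

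Expression was read on 6 arrays of presomitic mesoderm, the unsegmented tissue of the mouse tail from which somites bud, dissected at E9.5. Each array held RNA of 3 pooled tissues from embryos with 17 to 19 somites, and there were 3 arrays per genotype. Control embryos, labelled WT, were Taf10Flox/+ or Taf10flox/flox, and mutant embryos were TCre/+;Taf10flox/flox, so all embryos carried at least one floxed Taf10 allele. Whether controls carried TCre is not given in the labels. TCre is named for T (brachyury), a gene of the primitive streak and its mesoderm, and TAF10 is a subunit of the transcription complexes TFIID and SAGA. Values are log2 intensities, changes are mutant minus control, and the threshold for a call was 0.05 on limma's p after Benjamini-Hochberg adjustment over all single-symbol probe sets. Intensities of different probe sets depend on their probes, so the level of a gene is compared between arrays. Between genes, levels serve only to group, filter or pick genes by intensity. Sums of marker intensities weigh the probe sets of high intensity most.

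Integrins are heterodimers of an alpha and a beta subunit that span the cell membrane and tie the matrix to the actin cytoskeleton. The alpha subunit largely sets the ligand: alpha 5, alpha 8 and alpha v bind the RGD motif of fibronectin and related proteins, alpha 3, alpha 6 and alpha 7 bind laminins, alpha 1, alpha 2, alpha 10 and alpha 11 bind collagens, and alpha 4 and alpha 9 form a subfamily of their own. In presomitic mesoderm, integrin alpha 5 beta 1 and the fibronectin matrix it assembles are known to be needed for somites to form and keep their borders. Laminins with collagen IV, nidogens and perlecan make the basement membrane around the epithelial somite, while versican and hyaluronan fill the looser matrix between mesenchymal cells.

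The arrays carried the tissue's own markers. Tbx6 and Msgn1, transcription factors that define presomitic mesoderm, lay at log2 levels of 11.90 to 12.77 and 12.02 to 12.71. The summed intensity of 14 presomitic markers was 27591 to 28768 in controls and 29802 to 32282 in mutants. Within that list 7 changes were positive and 7 negative. Tbx6, Hes7 and Cdx1 rose (log2 0.63, 0.52 and 0.43), while Cyp26a1, Rspo3 and Cdx4 fell (log2 -0.74, -0.74 and -0.60). Blood markers summed to 9424 to 22632 in controls and 4153 to 16777 in mutants, and endothelium markers to 1279 to 2695 and 1156 to 2046, so both varied within each group. Mutant 3 stood apart from the other arrays, at 31.1 on the first principal component against -16.3 to 3.79. Of the 2 probe sets for Taf10, one was lower in the mutant (log2 -0.37, SE 0.08, limma adjusted p = 0.0400) and one was not called (log2 0.11, SE 0.10, limma adjusted p = 0.530). The exons they read are not known here, so neither checks the deletion.

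In the structural matrix and integrin genes 1 of 82 members was called, Itga8, which was lower in the mutant, and 0 were called higher. That is 1.22% of the members, against 5.92% of all genes called in either direction, 2.96% in each. At an unadjusted p under 0.05 limma gave 16 members (6 higher, 10 lower), or 19.5%, against 22.7% of all genes. In 26 members (14 higher, 12 lower) the mutant and control values did not overlap, or 31.7%, against 32.3% of all genes. The last 2 shares were near the background and say nothing particular about the members. The 95% interval of the change lay within 0.5 log2 units either way for 73 of 82 members, and the 9 others were Fbn2, Postn, Itga9, Itga1, Itgb1, Nid1, Itga6, Col25a1 and Col9a3.

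Itga8, the alpha subunit of a receptor for nephronectin and other RGD proteins, read 6.59, 6.63 and 6.60 in the 3 controls and 6.25, 6.34 and 6.24 in the 3 mutants. The groups did not overlap, and each was tight. Its mean level over the 6 arrays, log2 6.44, lay below the 40th percentile of single-symbol probe sets. Whether its signal lay above background was not tested. Itga8 fell to 79.3% of control (log2 -0.33, SE 0.06, n = 3 each, limma adjusted p = 0.0245), from 6.61 ± 0.02 to 6.27 ± 0.05 (SD), and an exact permutation test (two-sided) gave p = 0.1, below which a design of 3 against 3 cannot go. The call rested on every array but one: its adjusted p was 0.0107 with mutant 3 removed, and 0.111, 0.131 and 0.0809 when control 1, 2 or 3 was removed, 0.0758 when mutant 1 and 0.0555 when mutant 2 was. In these bulk pools, fewer cells that express a gene and less of its RNA per cell cannot be told apart.

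Of 13 alpha subunits, 4 had every mutant value below every control value (Itga8, Itga9, Itga4 and Itga1) and 4 had every mutant value above (Itga6, Itga2, Itga10 and Itga11). Non-overlap in either direction was found in 32.3% of all genes. The sequence just before the annotated start is shown for Itga8, the called gene, for Itga4 and Itga1, and for Itgb1, their common partner. No run was taken for Itga9, and a run taken for Itgb8 is not shown. Each run is 200 bases, 5′ to 3′ on the gene's strand, ends at the base before the outermost annotated start, and comes from RefSeq (build GRCm38.p6). Itga8 is at chr2:12301986-12302185 (minus strand), Itga4 at chr2:79255226-79255425 (plus), Itga1 at chr13:115101965-115102164 (minus) and Itgb1 at chr8:128685454-128685653 (plus). Capitals mark a match, on either strand, to the letters searched. These were TATAAA for the TATA motif. For the second motif, which binds NF-Y, they were CCAAT. For the GC-rich motif, which binds Sp1, they were GGGCGG.
Itga8: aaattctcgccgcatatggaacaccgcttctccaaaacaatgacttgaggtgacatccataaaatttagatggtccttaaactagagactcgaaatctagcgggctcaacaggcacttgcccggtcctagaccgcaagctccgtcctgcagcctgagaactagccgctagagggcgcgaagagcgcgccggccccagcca
Itga4: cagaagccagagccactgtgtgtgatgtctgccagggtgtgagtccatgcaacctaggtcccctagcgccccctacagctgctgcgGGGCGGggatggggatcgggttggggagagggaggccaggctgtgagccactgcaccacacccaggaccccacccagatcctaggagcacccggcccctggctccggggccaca
Itga1: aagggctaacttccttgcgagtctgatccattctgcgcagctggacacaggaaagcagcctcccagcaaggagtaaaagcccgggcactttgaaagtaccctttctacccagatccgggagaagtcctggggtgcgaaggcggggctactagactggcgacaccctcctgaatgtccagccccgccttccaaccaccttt
Itgb1: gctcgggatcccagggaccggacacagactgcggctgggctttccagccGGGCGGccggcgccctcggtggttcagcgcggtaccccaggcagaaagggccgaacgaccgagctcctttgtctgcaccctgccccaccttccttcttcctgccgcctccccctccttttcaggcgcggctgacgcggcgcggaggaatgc
Itga4 had a GC-rich motif 114 bases before its start and Itgb1 one at 151 bases, while the Itga8 and Itga1 runs held none of these letters. The Itgb8 run, not shown, had CCAAT 126 bases before its start. Over whole promoter windows, which reach from before to just after the start, TATAAA was found in 6 of 65 member windows (9.23%, 59 genes) and in 13.6% of all 32851 windows, CCAAT in 29.2% and 37.4%, and GGGCGG in 56.9% and 35.7%. The 32851 windows were not limited to genes on the array, so these shares set unlike groups of genes side by side. These matches are descriptions of sequence and not of binding.

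Itga9 read 7.79, 7.68 and 7.50 in controls and 7.28, 7.33 and 7.36 in mutants. Its change was -0.33 (SE 0.08, limma adjusted p = 0.0610), short of the threshold. Itga4, whose receptor binds fibronectin and VCAM1, read 7.05, 7.11 and 7.01 against 6.76, 6.86 and 6.78, a change of -0.26 (SE 0.07, limma adjusted p = 0.0620). These are the subfamily of alpha 4 and alpha 9, and both members lay lower in each mutant pool without passing. Both passed without mutant 3 (limma adjusted p = 0.0332 for Itga9 and 0.0366 for Itga4), and Itga4 also after quantile normalization (0.0461). Without mutant 3 calls over all genes also rose, from 5.92% to 12.8%. Neither passed when any other single array was removed, with 0.219 for Itga9 and 0.201 for Itga4 without control 1.

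Among collagen receptors, Itga1 had the widest difference of all members: 7.85, 7.48 and 7.39 in controls against 6.81, 7.25 and 6.66 in mutants. The mean was 63.1% of control (log2 -0.66, SE 0.17, limma adjusted p = 0.0643), with a spread between pools of 0.25 (control) and 0.31 (mutant). Control 1 was highest and mutants 1 and 3 lowest for Itga1. That also held for Pax3, a marker of the dermomyotome, which read 8.22, 7.56 and 7.44 in controls and 6.91, 7.18 and 6.95 in mutants (log2 -0.73, limma adjusted p = 0.0681). The 9 somite markers did not move together: 6 had negative and 3 positive changes (Pax1 0.13, Tbx18 0.08, Uncx 0.03), with 0 called, and their summed intensity was 4270 to 5444 in controls and 3656 to 4636 in mutants. The sum of 10 endothelium markers was also highest in control 1 (2695) and lowest in mutants 1 and 3 (1173 and 1156). In mutant 2, though, that sum was 2046, above controls 2 and 3 (1279 and 1604), while Itga1 was below every control. The part of somite tissue or endothelium in the Itga1 difference was not tested. The other 3 collagen-binding alpha genes, Itga2, Itga10 and Itga11, had every mutant value above the controls, with changes of 0.14 to 0.16, none called.

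Itga6, the alpha subunit of laminin receptors on epithelia and progenitor cells, was the gene that leaned most the other way. It read 7.60, 7.54 and 7.35 in controls and 8.01, 8.18 and 7.67 in mutants, so the groups did not overlap and mutant 3 was nearest the controls. The change was 0.45 (SE 0.13, limma adjusted p = 0.0892), and it passed without mutant 3 (log2 0.60, adjusted p = 0.00602). Itga6 did not pass when any other single array was removed (limma adjusted p = 0.167 to 0.241). The other laminin-binding alpha genes did not pass, Itga7 at 0.17 (SE 0.10) and Itga3 at -0.04 (SE 0.08). Whether laminin and collagen receptors differ in their response was not tested.

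Fibronectin and the alpha subunits 5 and v that bind it had changes near 0, none called. Itga8 (log2 -0.33, called) and Itga4 (log2 -0.26, not called), also of RGD or fibronectin receptors, are given above. Itga5 read 10.77, 10.70 and 10.79 in controls and 10.72, 10.57 and 11.02 in mutants (log2 0.02, 95% interval -0.24 to 0.27). Mutant 3 lay above all controls and mutant 2 below them, and the sign of the change depended on which array was left out (-0.108 to 0.116). Itgav, which pairs with several beta subunits to bind RGD ligands, had a change of -0.04 (95% interval -0.22 to 0.15). Fn1, the fibronectin gene, read 13.17, 13.18 and 13.19 in controls and 13.28, 13.26 and 13.17 in mutants, a change of 0.06 (95% interval -0.09 to 0.20).

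Itgb1, the beta subunit of the alpha 5 beta 1 receptor and of most other matrix-binding integrins, read 10.37, 10.28 and 10.23 in controls and 10.09, 10.14 and 9.65 in mutants. All mutant values were below the controls, but mutant 3 accounted for much of the distance. The change was -0.33 (SE 0.13, limma adjusted p = 0.172) and shrank to -0.18 without mutant 3 (adjusted p = 0.0997). Itgb8, which pairs with alpha v and activates latent TGF-beta, had a change of -0.20 (SE 0.08, limma adjusted p = 0.209). Itgb5 had 0.03 and Itgb3, Itgb2, Itgb4 and Itgb7 had 0.00 to 0.11, none called.

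**Figure D1:**
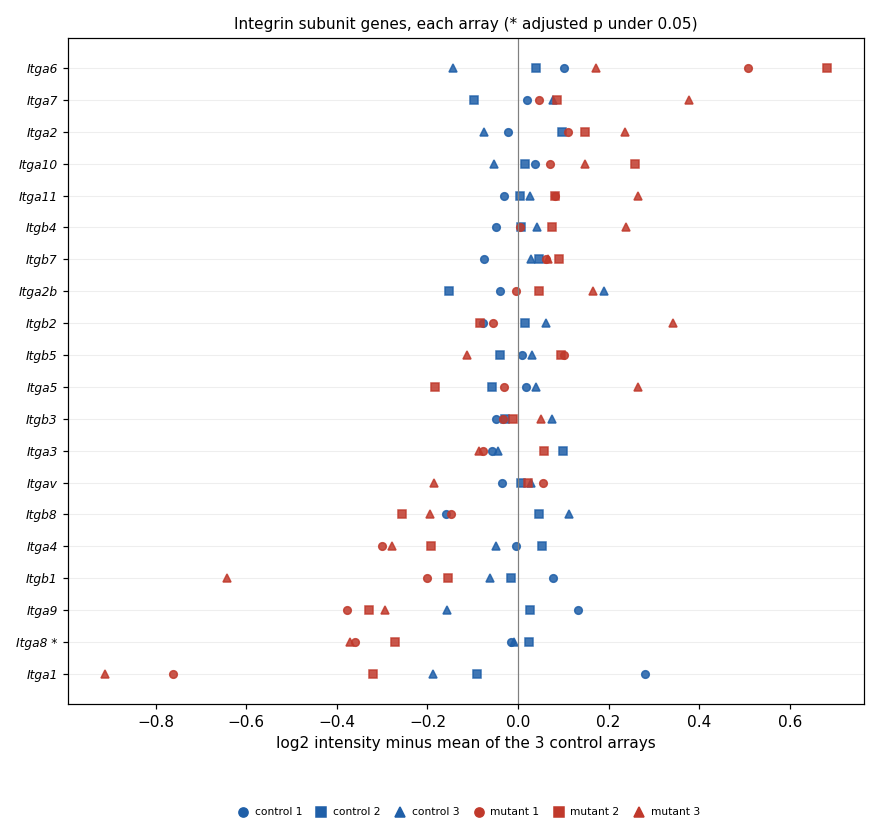
Each row is 1 of the 20 integrin genes and each point 1 array (3 controls in blue, 3 mutants in red); the x axis gives log2 intensity after subtraction of the gene's control mean. Itga8, starred, is the called gene (mean -0.33), Itga1 lies lowest at -0.66 and Itga6 highest at 0.45.

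Fibrillin 2, a microfibril protein that binds growth factors of the TGF-beta family, was the matrix gene nearest to a call among those outside the collagens and integrins. Fbn2 read 11.10, 11.09 and 11.06 in controls, with almost no spread, and 10.70, 10.85 and 10.38 in mutants. All mutant pools were below the controls, and mutant 3 was lowest. The mean was 73.6% of control (log2 -0.44, SE 0.12, limma adjusted p = 0.0670). The call passed narrowly without mutant 2 (log2 -0.55, adjusted p = 0.0499) and passed without mutant 3 (log2 -0.31, adjusted p = 0.0181). It did not pass without mutant 1 or without any one control (limma adjusted p = 0.109 to 0.229).

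Basement membrane genes gave values on both sides of 0. Of 10 laminin genes 6 had positive and 4 negative changes, with a median of 0.07, and none was called. Lama1, the alpha chain of laminin 111, the early embryonic laminin, read 10.90, 10.94 and 10.93 in controls and 10.87, 10.81 and 10.79 in mutants (log2 -0.10, 95% interval -0.24 to 0.04). Its partner chains Lamb1 and Lamc1 had changes of -0.10 (SE 0.09) and 0.06 (SE 0.11), and Lama5, the alpha chain of another laminin, -0.04 (SE 0.06). Lamb2 read 8.59, 8.53 and 8.63 in controls and 8.80, 8.86 and 8.71 in mutants, a change of 0.21 (SE 0.07, limma adjusted p = 0.123) that passed without mutant 3 (adjusted p = 0.0294). It did not pass when any other single array was removed (limma adjusted p = 0.193 to 0.362).

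Nidogens link laminin to collagen IV. Nid2 read 10.55, 10.48 and 10.49 in controls and 10.72, 10.71 and 10.61 in mutants, all above the controls (log2 0.17, SE 0.07, limma adjusted p = 0.174). It too passed without mutant 3 (adjusted p = 0.0434), but not when any other single array was removed. Hspg2, which encodes perlecan, the heparan sulphate proteoglycan of basement membranes, had a change of 0.04 (95% interval -0.10 to 0.19).

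Nid1 varied between pools of the same genotype. It read 8.79, 7.99 and 8.30 in controls and 7.84, 8.76 and 8.23 in mutants, with an SD of 0.40 and 0.46, so its change of -0.08 (95% interval -0.68 to 0.51) is poorly measured. The 2 pools with the highest Nid1, control 1 and mutant 2, also had the highest summed intensity of 10 endothelium markers, 2695 and 2046, against 1156 to 1604 in the other 4. Cdh5, the cadherin of endothelial junctions, read 9.73 and 9.13 in those 2 pools and 6.85 to 8.20 in the others. Of the 10 endothelium markers 0 were called in limma, also at an unadjusted p under 0.05, and the part of endothelium in the Nid1 values was not tested.

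**Figure D2:**
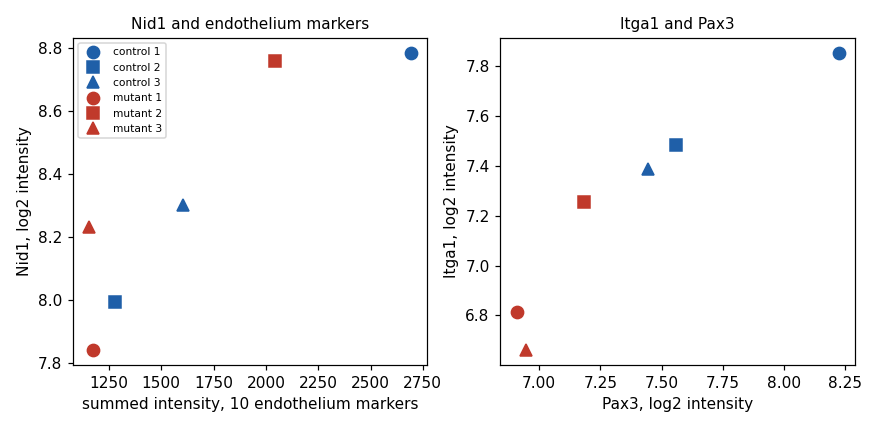
Left, Nid1 (log2 intensity, y axis) against the summed linear intensity of 10 endothelium markers (x axis); right, Itga1 (y axis) against Pax3 (x axis), both log2 intensity; 1 point per array, controls blue and mutants red. Control 1 and mutant 2 lie at the top right on the left (Nid1 8.79 and 8.76), and control 1 lies at the top right on the right (Itga1 7.85, Pax3 8.22).

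Collagen IV is a trimer of chains whose genes lie head to head in pairs, and Col4a1 and Col4a2 encode its ubiquitous form. Col4a1 read 8.69, 8.66 and 8.63 in controls and 8.47, 8.53 and 8.54 in mutants, and Col4a2 8.07, 8.02 and 8.24 against 7.95, 8.02 and 7.93. Both had mean levels 90% of control or slightly more (90.3% and 90.4%), with changes of -0.15 (SE 0.06, limma adjusted p = 0.200) and -0.14 (SE 0.08, limma adjusted p = 0.302). The other chains, Col4a3 to Col4a6, had changes of -0.00 to 0.10, and Col15a1 and Col18a1, collagens of the basement membrane zone, 0.08 and -0.01.

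Among 11 fibrillar collagens, the fibre-forming chains of connective tissue and cartilage, 8 had positive and 3 negative changes, and none was called. Col5a2 read 7.33, 7.26 and 7.35 in controls and 7.06, 7.17 and 7.16 in mutants (log2 -0.18, SE 0.07, limma adjusted p = 0.154). Of the partner chains of collagen I, Col1a1 had a change of 0.19 (SE 0.13) and Col1a2 of -0.14 (SE 0.10). Col2a1, the cartilage and notochord collagen, had 0.15 (SE 0.08) and Col3a1 -0.05 (SE 0.09). Col27a1 had 0.07 (SE 0.08).

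Of the 25 other collagens, 24 had a positive change, from 0.04 to 0.30, and 0 were called. Col26a1 was the exception: 8.95, 8.99 and 8.93 in controls against 8.70, 8.72 and 8.77 in mutants (log2 -0.23, SE 0.06, limma adjusted p = 0.0719, and adjusted p = 0.0213 without mutant 3). It did not pass when any other single array was removed (limma adjusted p = 0.155 to 0.266). Col25a1, a transmembrane collagen, read 6.93, 7.08 and 7.26 in controls and 7.34, 7.28 and 7.53 in mutants (log2 0.30, SE 0.10, limma adjusted p = 0.138). Col9a1, a cartilage collagen that decorates fibrils, read 7.73, 7.93 and 8.04 against 8.15, 8.12 and 8.13 (log2 0.23, SE 0.09, limma adjusted p = 0.158). The 2 genes read by 2 probe sets each, Col6a5 and Col6a6, gave 0.05 to 0.14, in the same direction.

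Most collagen changes were small and positive, and so were those of many genes at like levels. Over all 44 collagens 36 changes were positive (81.8%) with a median of 0.09; over the 8507 genes in the same range of mean level, log2 5.83 to 8.84, 69.3% were positive with a median of 0.06. Genes below a mean log2 of 8 had a median change of 0.06, those from 8 to 10 of -0.01 and those of 10 or more of -0.03. The collagen median by array, relative to the mean of controls, was -0.12, 0.02 and 0.10 in controls and 0.04, 0.05 and 0.17 in mutants, so control 3 lay above mutants 1 and 2. After cyclic loess, which takes out the trend of values with level, 30 of 44 collagens were positive and their median was 0.04, against 0.00 over all genes. With quantile normalization 33 were positive and the median was 0.05, against 0.01 over all genes. Whether collagens differ from other genes of their level was not tested.

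**Figure D3:**
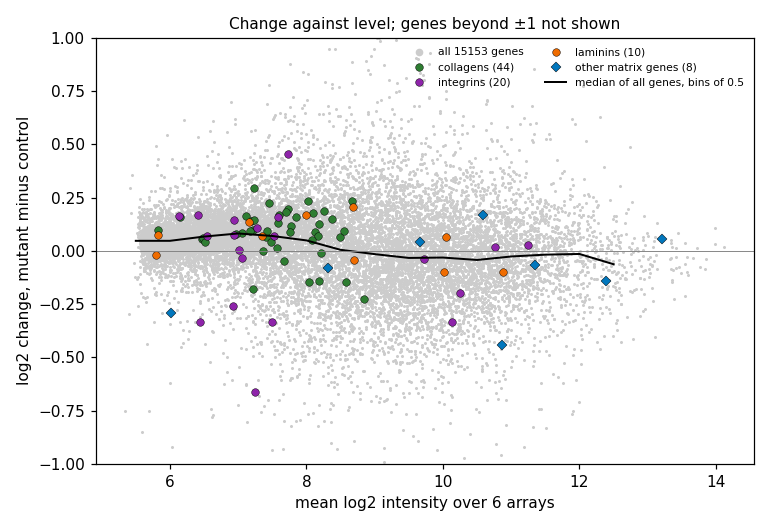
Log2 change (y axis, mutant minus control) against mean log2 intensity over 6 arrays (x axis) for all 15153 genes (grey) and for collagens, integrins, laminins and other matrix genes, with the median of all genes in bins of 0.5 as a black line. All 44 collagens lie between log2 levels of 5.83 and 8.84, where the black line is mostly above 0, and Itga1 and Fbn2 lie far below it.

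Versican and hyaluronan form the hydrated matrix between mesenchymal cells. Vcan read 12.41, 12.51 and 12.45 in controls and 12.39, 12.34 and 12.22 in mutants, all below the controls (log2 -0.14, SE 0.07, limma adjusted p = 0.281). Has2, the main hyaluronan synthase of the early embryo, had a change of -0.07 (95% interval -0.29 to 0.15). Postn, which encodes periostin, a matrix protein of fibrous and cushion tissue, read 5.66, 7.31 and 5.52 in controls and 5.34, 5.45 and 6.82 in mutants. Control 2 and mutant 3 were each over 1 log2 unit above the other pools of their genotype, and the change of -0.29 had a 95% interval of -1.53 to 0.94.

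**Figure D4:**
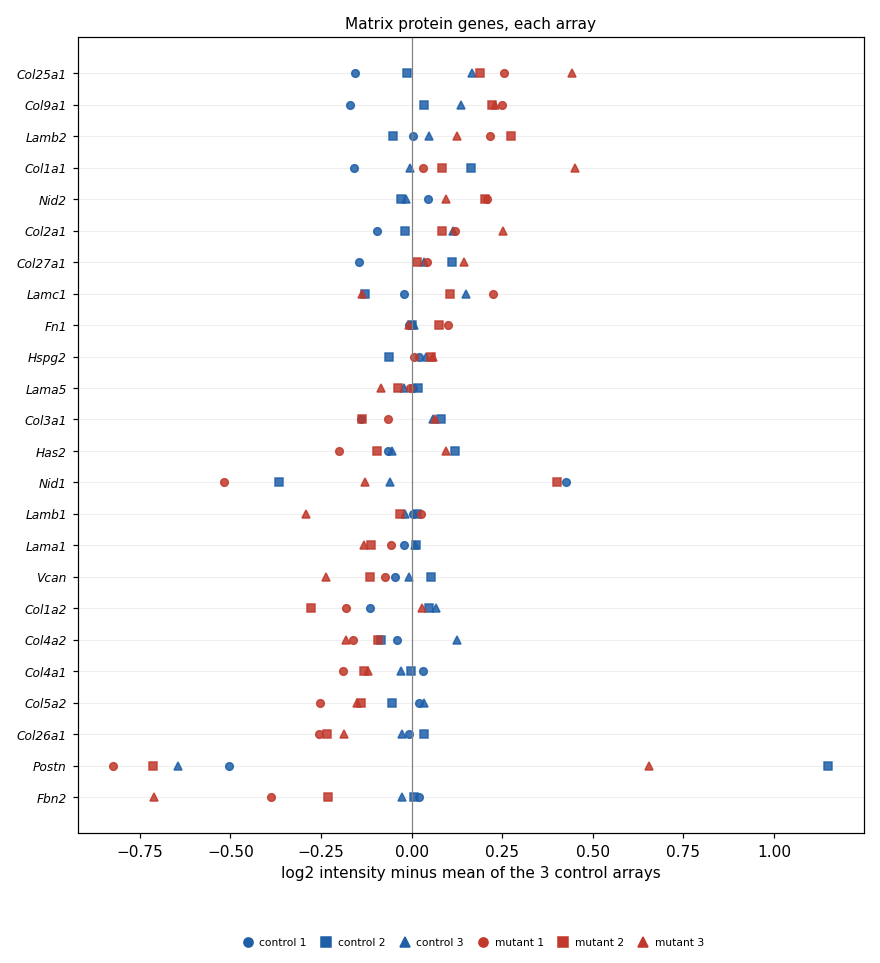
Each row is a matrix protein gene named in the text and each point 1 array (controls blue, mutants red); the x axis gives log2 intensity after subtraction of the gene's control mean. Fbn2 lies lowest by its mean (-0.44), Postn and Nid1 are spread within both groups, and Fn1 lies close to 0 on all arrays.

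Enzymes and partners of the matrix were read from 5 lists chosen by function. Over the 161 genes measured, 5 rose and 11 fell, or 9.94% called. Of all genes 5.92% were called, 2.96% in each direction, and the difference was not tested. These shares of all genes are the background for the counts of each list below. The lists were chosen with earlier results of these data known, so their share is not an independent comparison with all genes. Of 28 measured genes for the synthesis and crosslinking of collagen, 2 rose and 2 fell. Plod2, the lysyl hydroxylase of collagen telopeptides, read 9.55, 9.70 and 9.66 in controls and 10.31, 10.42 and 10.11 in mutants, a rise to 157% of control (log2 0.65, SE 0.09, limma adjusted p = 0.0118). P4ha1, a catalytic subunit of prolyl 4-hydroxylase, rose by 0.29 (SE 0.06, limma adjusted p = 0.0359). Crtap, which forms the prolyl 3-hydroxylation complex, read 8.65, 8.62 and 8.54 in controls and 7.99, 8.01 and 8.10 in mutants, and fell to 67.3% of control (log2 -0.57, SE 0.07, limma adjusted p = 0.00643). Serpinh1, the collagen chaperone HSP47, fell to 76.5% (log2 -0.39, SE 0.07, limma adjusted p = 0.0235). The list's median change was 0.04, against 0.03 over all genes.

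Of 28 matrix proteases and inhibitors, 1 rose and 3 fell, with a list median of 0.10, against 0.03 over all genes. Mmp14, the membrane-bound metalloprotease that activates MMP2, read 9.18, 9.02 and 9.13 in controls and 8.56, 8.53 and 8.55 in mutants, and fell to 67.6% (log2 -0.56, SE 0.07, limma adjusted p = 0.00691). Mmp16, a related membrane-type protease, fell to 72.0% (log2 -0.47, SE 0.07) and Adamts20, a protease that cleaves versican, to 75.7% (log2 -0.40, SE 0.07). Mmp11, also named stromelysin 3, read 7.84, 7.95 and 8.15 in controls and 8.60, 8.58 and 8.81 in mutants, and rose to 160% (log2 0.68, SE 0.10, limma adjusted p = 0.0124).

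Of 34 intracellular partners of integrins 3 fell and 0 rose, with a list median of -0.08. Over all genes the median was 0.03, over those of mean log2 8 to 10 -0.01 and of 10 or more -0.03. Tns3, a tensin that links integrins to actin, fell to 71.5% of control (log2 -0.48, SE 0.07, limma adjusted p = 0.0127), and the adhesion protein gene Tes to 75.1% (log2 -0.41, SE 0.07). Rapgef1, an activator of the GTPase Rap1, fell by 0.39 (SE 0.06, limma adjusted p = 0.0139) on the probe set that stood for it, while its other probe set had a change of 0.16 (limma adjusted p = 0.368), so its direction is uncertain. Of 21 other matrix receptors Cd81, a tetraspanin, rose by 0.31 (SE 0.07, limma adjusted p = 0.0369), and Cd44, the hyaluronan receptor, fell by 0.31 (SE 0.07, limma adjusted p = 0.0483). The Cd44 call was lost with the replicate block (adjusted p = 0.0686) and with all probe sets in the adjustment (0.0507).

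Of 50 further matrix proteins and hyaluronan enzymes, 1 rose and 2 fell, with a list median of 0.08, against 0.03 over all genes. Sparcl1, a secreted relative of the collagen-binding protein SPARC, read 10.79, 10.85 and 10.86 in controls and 9.82, 9.98 and 10.12 in mutants, and fell to 55.2% (log2 -0.86, SE 0.09, limma adjusted p = 0.00529). Ltbp1, which holds latent TGF-beta in the matrix, fell to 72.2% (log2 -0.47, SE 0.08). Mfap4, a microfibril-associated protein, rose to 160% (log2 0.68, SE 0.12, limma adjusted p = 0.0209). In these 16 list genes, picked by their limma p, the groups did not overlap, so the gap is no separate support. Among all genes the share without overlap was 32.3%.

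**Figure D5:**
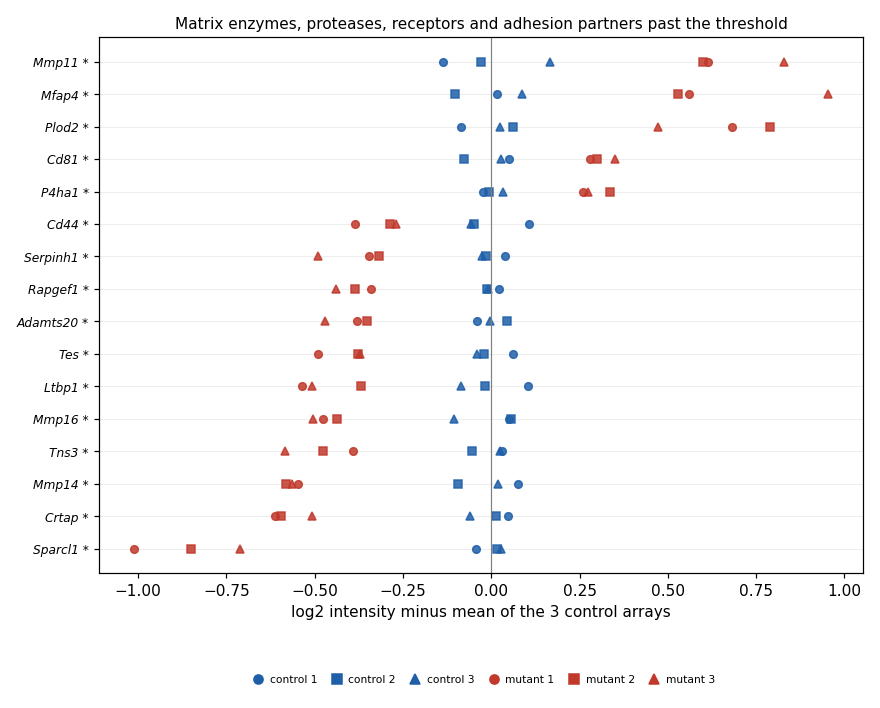
Each row is 1 of the 16 called genes of the 5 lists of matrix enzymes, proteases, receptors, adhesion partners and further matrix proteins, and each point 1 array (controls blue, mutants red); the x axis gives log2 intensity after subtraction of the gene's control mean. Mmp11, Mfap4 and Plod2 lie to the right (0.65 to 0.68) and Sparcl1 furthest to the left (-0.86).

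The number of calls depended on single arrays. Of the 17 calls above (Itga8 and the 16 list genes), 1 (Sparcl1) held when control 1 was removed, 2 (Sparcl1 and Mmp14) for control 2, 7 for control 3, 10 for mutant 1, 10 for mutant 2 and 17 for mutant 3. Among members, limma called 0 when any one control or mutant 1 was removed. Of all 15153 genes it then called 41, 67 and 323 (control 1, 2 or 3 removed) and 470 (mutant 1 removed). Without mutant 2 it called 2 members, Fbn2 and Itga1, and 355 of all genes. Without mutant 3 there were 8, or 9.76% of the members, against 12.8% of all genes: Itga6, Lamb2 and Nid2 higher, and Itga8, Itga4, Itga9, Fbn2 and Col26a1 lower.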

How the data were processed

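Labels and the value table were used as deposited: per the submitters' processing notes the authors made the intensity values with RMA (background correction, normalization between arrays, probe summary), with neither version, chip file nor probe set filtering known from the labels. Values are linear intensities and were turned into log2 without further normalization or filter. Of 18064 probe sets 16311 had 1 gene symbol in the platform annotation, 734 several and 1019 none; all 84 member probe sets matched the RefSeq table of GRCm38.p6 by gene ID, with 0 symbols changed. Array medians were 307.9 to 317.5, and the number of arrays limits the precision. The fit was limma 3.58.1 in R 4.3.3 (lmFit, eBayes; 3 control against 3 mutant arrays), with Benjamini-Hochberg adjustment over 16311 probe sets; the probe set with the highest mean stood for a gene. The script was tested on simulated data. The labels call the arrays biological replicates, each a pool of 3 tissues.

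Named with full values are members past the threshold or among the 12 smallest p, the member with the highest level and the one with the smallest p in each class, chain partners, and of each pathway list the called genes up to 4. Postn, Nid1 and others outside these were named after their values were seen. Members, lists and alternatives were chosen with earlier results of these data known. Alternatives were a replicate block, 2 normalizations, a filter on level, all probe sets, another probe set per gene, 2 forms of eBayes, array weights, other thresholds and arrays left out; cyclic loess, which takes out the trend with level on an array, was added after seeing the data.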

Additional observations from a re-analysis of the deposited data

How the results depend on the processing

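Calls over all genes numbered 897 in the main analysis and 41 (without control 1) to 1945 (without mutant 3) with 1 array left out; among the 82 members the count was 1, with 0 to 8 over the same leave-outs. Array weights gave 3608 genes and 14 members, an adjusted p under 0.10 gave 1711 and 7, under 0.01 gave 140 and 0, and leaving out control 3 and mutant 3 together gave 2125 and 10. Among members the replicate block gave 3 (Fbn2, Itga6 and Itga8), quantile normalization 2, removal of the trend with level 2 (both with Itga4 and Itga8) and the filter on level 0, since Itga8 lies below that filter. Of all 15153 genes, quantile normalization called 981 and removal of the trend 1014. The filter kept 40 members and 8922 genes, and 892 of those genes were called. With the replicate block 1084 genes were called, 16 of the 17 calls named in the report held, and Cd44 was lost (adjusted p = 0.0686). The labels do not say whether pools of equal replicate number belong together. Deviations of equally numbered pools from their group means correlated at 0.13, 0.08 and 0.32. Pools of unequal number were not compared, so these values cannot show whether equal numbers belong together. Cd44 was also lost with all probe sets (0.0507). Changes near 0 turned sign. Itga5 gave -0.128 with array weights and -0.0879 without control 3 and mutant 3, and -0.108 to 0.116 with 1 array left out. Col27a1 gave -0.0121 with array weights and -0.0059 to 0.122 with 1 array left out, and Itgb5 gave -0.00838 (without mutant 1) to 0.0984. Rapgef1 gave 0.16 on its lower probe set. No cause was tested. With 3 arrays per group, differences smaller than the spread between pools, as in Nid1 and Postn, could not be told from 0.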

Other observations

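Postn was alone in its pattern over the arrays. Of 15153 genes, it was the 1 whose control 2 value lay at least 0.5 log2 units above both other controls while its mutant 3 value lay at least 0.5 above both other mutants; its gaps were 1.65 and 1.37. The 8 markers of intermediate and lateral mesoderm, Hand1, Hand2 and Osr1 among them, summed to 4656 in control 2 and 5792 in mutant 3, against 4283 to 5367 on the other arrays. Among controls this sum was lowest in control 2, where Postn was highest. The gene was picked after its values were seen, and no test bears on it.

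Of those 8 markers Lhx1, a transcription factor of intermediate mesoderm, was called: it read 7.41, 7.48 and 7.50 in controls and 8.43, 8.57 and 8.55 in mutants, and rose by 1.05 (limma adjusted p = 0.00158). The others had changes of -0.15 to 0.16, none called.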
